A study of Drosophila melanogaster with 8 samples.

Results

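Mutant mtDNA was compared with control mtDNA in libraries labelled as fly intestinal stem cells, with FOXO knockdown in both groups. The comparison took every library labelled with FOXO knockdown, which were 4 of the 8 libraries of the series: 2 with mutant mtDNA and FOXO knockdown, and 2 with control mtDNA and FOXO knockdown. The other 4 libraries, 2 with mutant mtDNA and 2 with control mtDNA, had no knockdown and enter only where the same change is set beside that without knockdown. RNA bound to poly(A)-binding protein (pAbp) was recovered on anti-FLAG beads from fixed and sonicated material, and the authors deposited 1 table of read counts per gene. The mtDNA allele, the share of mutant genomes, the driver and construct of the knockdown, the age of the flies and whether replicates came from separate animals are not given in the sources used here, so p-values measure only the spread between these samples. Below, mutant libraries and control libraries are those with FOXO knockdown unless a sentence says otherwise.

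Mitochondrial DNA encodes core subunits of the respiratory chain and ATP synthase together with the rRNAs and tRNAs of the mitochondrial ribosome, and all other mitochondrial proteins come from nuclear genes. FOXO is the transcription factor that insulin signalling keeps out of the nucleus; when that signalling is low it activates genes such as Thor, an inhibitor of translation initiation, and the insulin receptor InR. Intestinal stem cells of the fly midgut divide to replace its absorptive enterocytes and hormone-secreting enteroendocrine cells. The study's stated question is how disrupted oxidative phosphorylation changes expression in these cells and what FOXO contributes to it.

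With FOXO knockdown in both groups, mutant libraries had lower RNA of 26 of 82 cytosolic ribosomal protein genes, of 6 of 13 mitochondrially encoded mRNAs and of 3 of 22 vacuolar ATPase subunits. They had higher RNA of 6 of 18 carbohydrases, which were maltases and lysosomal alpha-mannosidases, and of a pair of peptidoglycan-degrading recognition proteins. At an edgeR quasi-likelihood adjusted p under 0.05, 143 of 9920 genes tested (1.44%) were called: 61 (0.615%) were higher and 82 (0.827%) were lower in mutant libraries. Most changes were small, with a median absolute log2 fold change of 0.60 among called genes, and 21 genes rose and 8 fell by at least 1 on the log2 scale. The CPM (counts scaled to a common library size with the trimmed mean of M values, TMM) of the 2 groups did not overlap for any called gene, which was also true of 42% of all genes tested. The count rests on single libraries: it was 13 without mutant replicate 1, 6 without mutant replicate 2, 294 without control replicate 1 and 1891 without control replicate 2. Of the 53 called genes that the naming rule selected, 6 were called without mutant replicate 1, 5 without mutant replicate 2, 52 without control replicate 1 and 53 without control replicate 2. Scaled by total counts instead of TMM, 30 genes were higher and 86 lower, so that 25.9% of calls were higher against 42.7% with TMM.

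**Figure D1:**
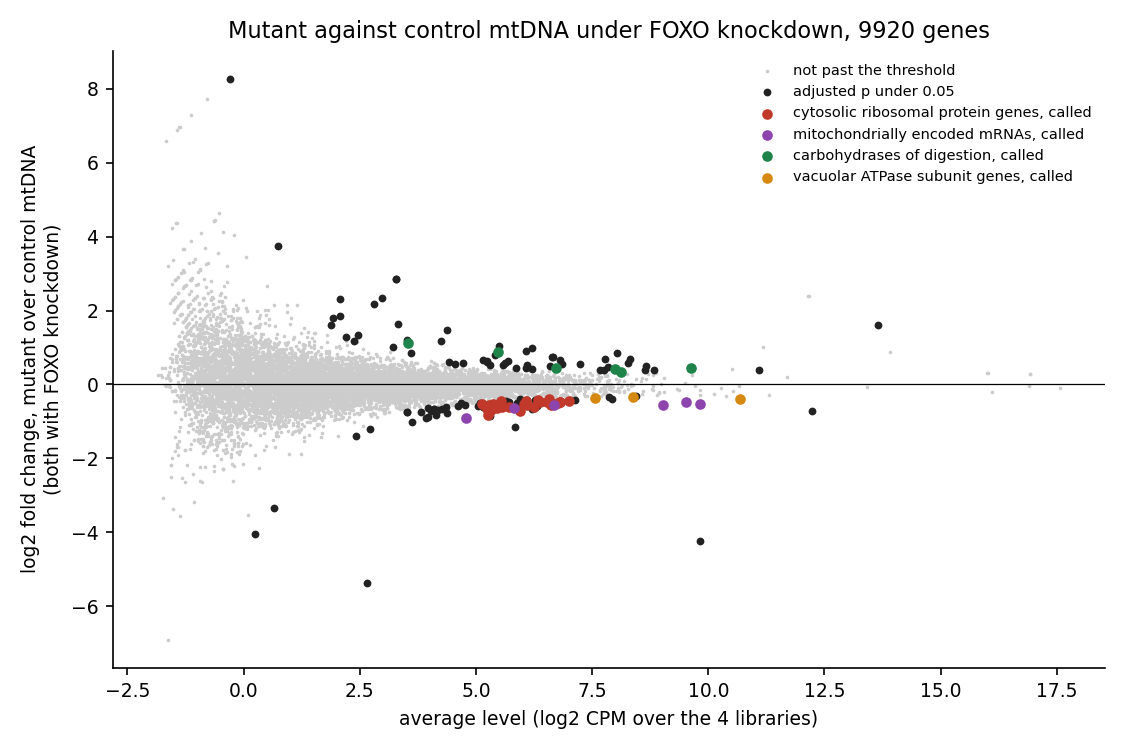
Each point is 1 of 9920 genes, by average level (log2 CPM over the 4 libraries) and log2 fold change of mutant over control mtDNA, both with FOXO knockdown. The called ribosomal protein genes, mitochondrial mRNAs and vacuolar ATPase genes lie below 0 and the called carbohydrases above it; the largest falls include CG11893 at -5.36 and 28SrRNA-Psi:CR40741 at -4.24.

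The libraries of the comparison were alike in rRNA share and unlike in how low counts were spread. Total counts were 36096037 and 27445243 in mutant libraries and 24577032 and 21133996 in control libraries, of which rRNA genes held 80.6% to 83.8% (95% Wilson intervals reach at most 0.0169 percentage points to either side and cover counting error only). Genes with 1 to 5 counts numbered 2911 and 3012 in mutant libraries, against 721 and 2814 in control libraries. Of 7716 genes with more than 20 counts in each of the other 3 libraries, 45 had 0 counts in control replicate 1; the same count was 0 for each of the other 3 libraries. By these counts control replicate 1 stands apart at low counts, and 2 called genes had 0 counts in it. The median squared deviation per gene between replicates was 1.53 in the mutant group and 4.01 in the control group, so no replicate pair was as close as the 0.455 that a library sequenced again would give; the measure does not say which replicate differs.

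The knockdown was looked at first in the foxo transcript itself. On the scale of all 8 libraries foxo had 52.1 and 53.1 CPM in mutant libraries with knockdown and 52.1 and 48.1 CPM in control libraries with knockdown, against 49.8 and 66.6 CPM in mutant and 43.3 and 61.9 CPM in control libraries without knockdown. The values with knockdown thus lay within the range of all values without it. The lower values without knockdown, 49.8 and 43.3 CPM, came from libraries with an rRNA share of 30.8% and 18.2%. The 66.6 and 61.9 CPM came from libraries with a share of 79.6% and 79.4%, nearer that of the knockdown libraries. All values with knockdown were below these 66.6 and 61.9 CPM, a difference that was not tested. The labels do not say whether the knockdown acts on the RNA in these cells or in how many of the cells that gave RNA. Between the groups with knockdown, foxo differed by a log2 change of 0.06 (SE 0.11, edgeR adjusted p 0.89).

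Genes of the insulin and FOXO pathway were near 0 between mutant and control mtDNA. Of 20 tested, 1 fell, none rose and the median log2 fold change was 0.01. Pi3K21B, the regulatory subunit of the insulin-pathway lipid kinase, was the member that fell, by 0.55 on the log2 scale (edgeR adjusted p 0.0264). Thor had 125 and 129 CPM in mutant libraries and 102 and 105 CPM in control libraries; the groups did not overlap, and the log2 difference of 0.30 (SE 0.08) was not past the threshold (edgeR adjusted p 0.106). InR had a log2 difference of 0.06 (edgeR adjusted p 0.873).

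**Figure D2:**
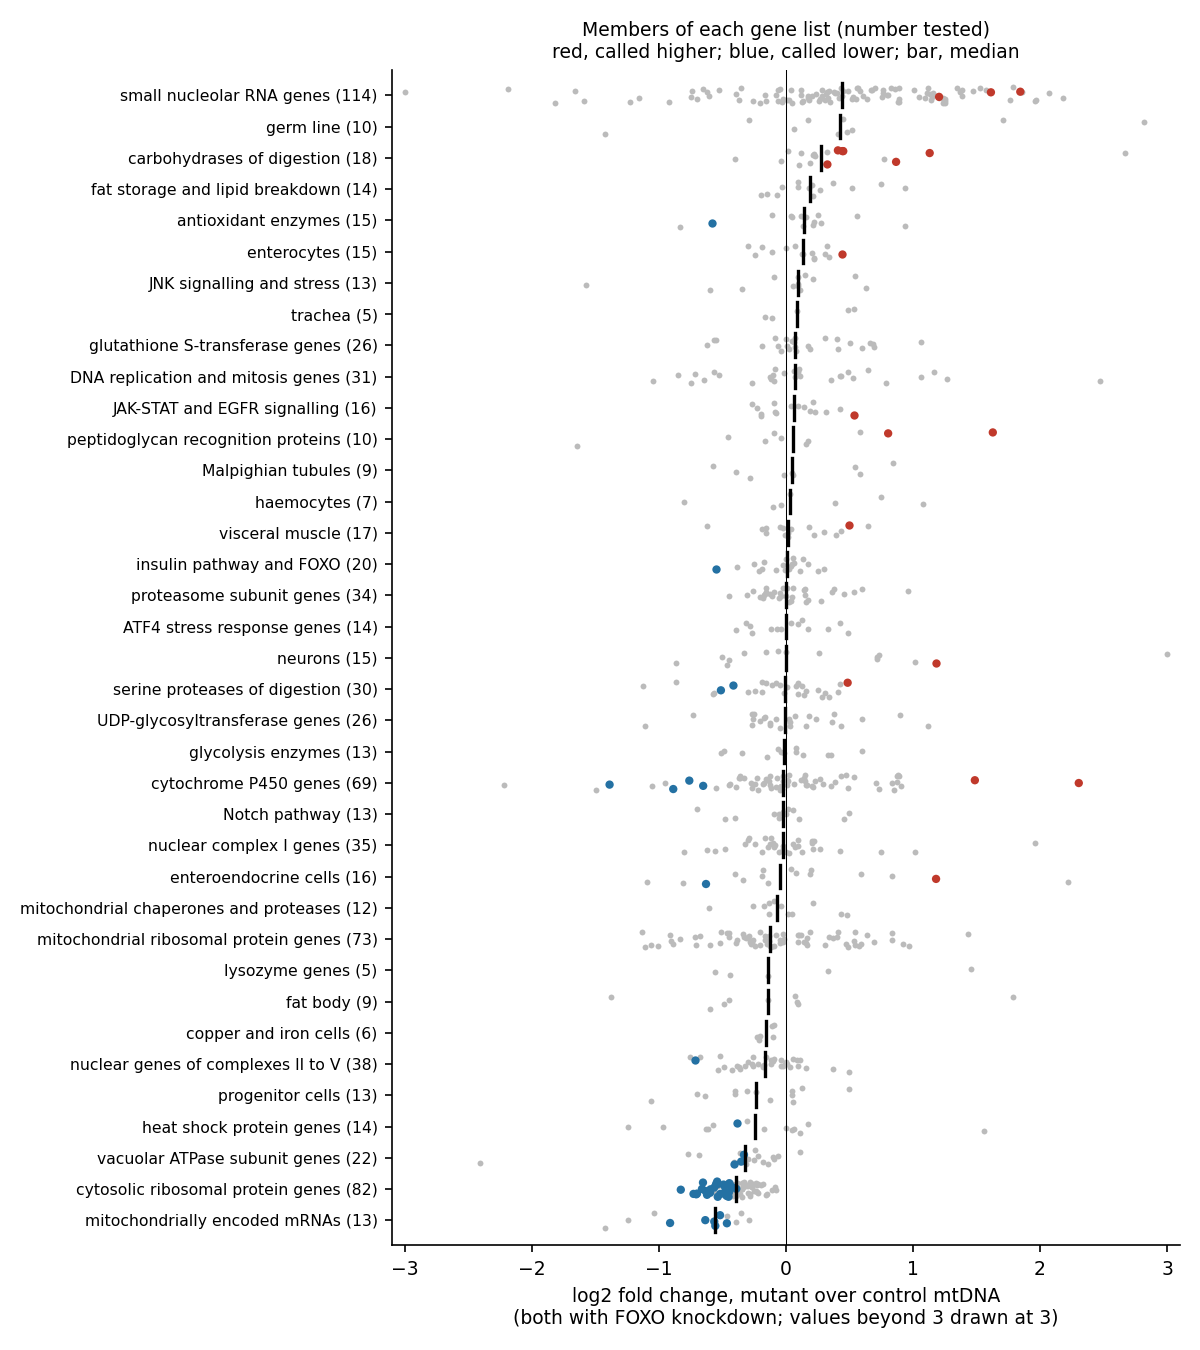
Each point is the log2 fold change of 1 gene, mutant over control mtDNA with FOXO knockdown, by gene list with the number tested; the black bar is the list's median, red points were called higher and blue points lower. All 82 ribosomal protein genes and all 13 mitochondrially encoded mRNAs lie below 0, and 16 of 18 carbohydrases lie above it.

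Mitochondrially encoded mRNAs were lower in mutant libraries. All 13 were below 0, with a median log2 fold change of -0.56 against 0.01 over all genes tested, and 6 of the 13 were called lower and none higher (0.827% of all genes were called lower). mt:CoI, a catalytic subunit of cytochrome c oxidase, had 408 and 435 CPM in mutant libraries and 637 and 603 CPM in control libraries, a log2 change of -0.56 (SE 0.07, edgeR adjusted p 0.000824). Both mutant libraries lay below both control libraries. mt:ND1, a complex I subunit, had 729 and 766 CPM in mutant libraries and 1088 and 1055 CPM in control libraries, a log2 change of -0.52 (SE 0.07, edgeR adjusted p 0.000981). mt:ND4, also of complex I, had 17.8 and 20.4 CPM in mutant libraries and 40.4 and 31.1 CPM in control libraries, with the largest fall of the called members at -0.91 (SE 0.14, edgeR adjusted p 0.00246). These groups did not overlap either, as in every called gene.

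The rest of the mitochondrial genome had values of the same sign but less agreement between the control replicates. mt:CoIII (-0.47), mt:ATPase6 (-0.64) and mt:Cyt-b (-0.57) were the other called members. mt:CoII had 76.9 and 90.9 CPM in mutant libraries and 102 and 112 CPM in control libraries, and its log2 difference of -0.35 was not past the threshold (edgeR adjusted p 0.106). In all, 8 of the 13 mRNAs did not overlap between groups, beside 42% of all genes tested. The other 5 (mt:ATPase8, mt:ND2, mt:ND3, mt:ND5 and mt:ND6) were higher in control replicate 1 than in control replicate 2. The large mitochondrial rRNA mt:lrRNA had 2167 and 2434 CPM in mutant libraries and 3055 and 2497 CPM in control libraries (log2 -0.27, edgeR adjusted p 0.217). The small one, mt:srRNA, had 15.2 and 21.2 CPM in mutant libraries and 38.2 and 14.3 CPM in control libraries, which overlap, and its log2 value of -0.54 (edgeR adjusted p 0.495) became 0.33 without control replicate 1. Of all counts outside rRNA genes, the mitochondrial genome took 2.37% and 2.62% in mutant libraries and 3.49% and 2.98% in control libraries. Without mutant replicate 1 or without mutant replicate 2 no mitochondrial mRNA was called; 6 were called lower without control replicate 1 and 9 without control replicate 2. The list's median was -0.35 without control replicate 1 and -0.81 without control replicate 2.

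Few nuclear genes of the same respiratory complexes were called. None of 35 complex I genes was called (median log2 fold change -0.03, with 15 above 0 and 20 below). Of 38 genes of complexes II to V, only ATPsyngamma, the gamma subunit of ATP synthase, was called. It fell by 0.72 on the log2 scale (edgeR adjusted p 0.021), and the list's median was -0.17. Of these 38, 28 were below 0 and 10 above it. The groups did not overlap for 17 that were lower and 2 that were higher, beside 42% of all genes tested. No mitochondrial ribosomal protein gene of 73 (median -0.13) and no mitochondrial chaperone or protease of 12 (median -0.07) was called. Many of these genes had a low level: 1 of the 73, 5 of the 12 and 5 of the 35 complex I genes averaged 16 CPM or more. The lack of calls in these lists therefore does not show a lack of change. Of 14 genes of the ATF4 stress response, which mitochondrial dysfunction is known to induce in many animals, none was called (median -0.00098), and neither was any of 13 glycolysis enzymes (median -0.02). Jafrac1, a cytosolic peroxiredoxin, fell by 0.59 on the log2 scale and was the one called member of 15 antioxidant genes, whose median was 0.15.

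Cytosolic ribosomal protein genes made up the largest group of calls. All 82 tested were below 0 (range -0.83 to -0.08, median -0.39). Of these, 26 were called lower and none higher, against 0.827% of all genes called lower. RpL11, of the large subunit, had 28.3 and 27.0 CPM in mutant libraries and 53.1 and 45.3 CPM in control libraries, a log2 change of -0.83 (SE 0.11, edgeR adjusted p 0.000968). RpS28b, of the small subunit, had 46.4 and 45.9 CPM in mutant libraries and 80.8 and 72.1 CPM in control libraries (-0.73, SE 0.10, edgeR adjusted p 0.000828). For both genes the mutant replicates were close to each other, the control replicates were further apart, and the groups did not overlap. RpS26 had 29.8 and 29.7 CPM in mutant libraries and 49.0 and 48.2 CPM in control libraries (-0.71, edgeR adjusted p 0.00177). RpLP2, an acidic protein of the ribosomal stalk, had 58.5 and 62.5 CPM in mutant libraries and 90.9 and 92.2 CPM in control libraries (-0.60, edgeR adjusted p 0.00246). For 75 of the 82 genes both mutant libraries lay below both control libraries. Over all genes tested, 42% had groups that did not overlap, in either direction. Without either mutant library no ribosomal protein gene was called, and 48 were called lower without control replicate 1 and 48 without control replicate 2, while the list's median stayed between -0.52 and -0.34 under every alternative run.

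The next 4 called genes stand outside the rule for naming genes and outside the gene lists, and were picked after their values were seen, so they say nothing of other translation factors. eIF4A, the helicase of translation initiation, had 211 and 199 CPM in mutant libraries and 255 and 265 CPM in control libraries (log2 -0.35, edgeR adjusted p 0.0355). eEF5 fell by 0.40 and Tctp, a conserved growth-related protein, by 0.47 on the log2 scale (edgeR adjusted p 0.0495 and 0.0118). pAbp, whose protein was the handle of the pull-down, had 313 and 306 CPM in mutant libraries and 385 and 383 CPM in control libraries (log2 -0.31, edgeR adjusted p 0.0479). Its part in the other results was not tested.

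**Figure D3:**
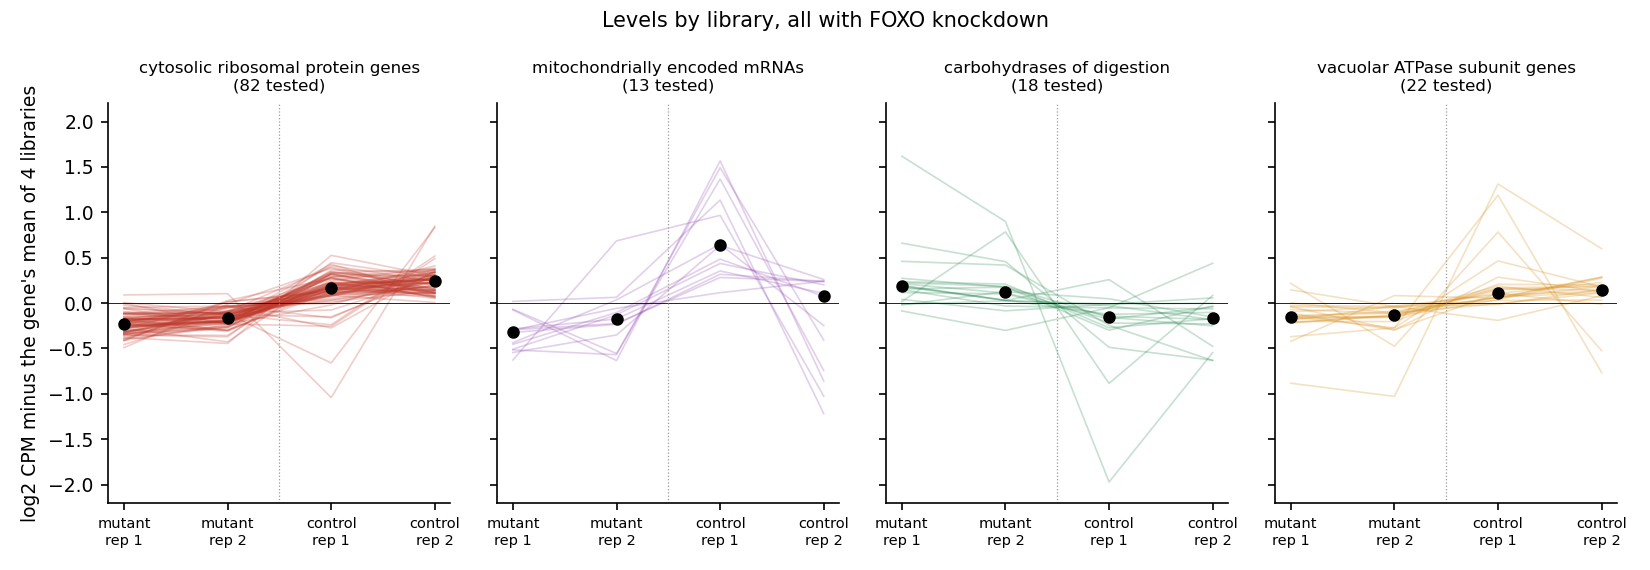
Each line is 1 gene, as log2 CPM minus the gene's mean over the 4 libraries, with both mutant libraries left of both control libraries, and the black point is the list's median in that library. The ribosomal protein lines lie close together, while the mitochondrial lines spread in the control replicates: the 5 mRNAs whose groups overlap are high in control replicate 1 and low in control replicate 2.

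Carbohydrases of digestion and of the lysosome were among the genes that rose. Of 18 tested, 6 were called higher and none lower, against 0.615% of all genes called higher. Of the 18, 16 were above 0, and the median log2 fold change was 0.28. Mal-A1, a maltase of enterocytes, had 922 and 905 CPM in mutant libraries and 648 and 695 CPM in control libraries, a log2 change of 0.44 (SE 0.07, edgeR adjusted p 0.00414). The maltase genes Mal-A6, Mal-A7 and Mal-A8, which lie close to each other in the genome, rose by 0.41, 0.45 and 0.33. The larger rises among called carbohydrases were in lysosomal alpha-mannosidases, which trim sugar chains of glycoproteins. LManI and LManII, of the same family, were not called. LManIII had 58.3 and 56.6 CPM in mutant libraries and 35.7 and 27.3 CPM in control libraries (0.87, SE 0.12, edgeR adjusted p 0.00119). LManIV had 16.9 and 14.6 CPM in mutant libraries and 7.57 and 6.85 CPM in control libraries (1.13, SE 0.17, edgeR adjusted p 0.00253). LManV and LManVI, which the list did not hold and which were noticed after their values were seen, rose by 0.68 each, LManVI with 395 and 384 CPM in mutant libraries and 242 and 244 CPM in control libraries. The 4 called mannosidase genes lie next to each other, and no groups overlapped among them, as in every called gene.

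The rise was not shared by every carbohydrase. Mal-A4 had 44.5 and 38.3 CPM in mutant libraries and 45.6 and 64.1 CPM in control libraries (log2 -0.40, edgeR adjusted p 0.219), and tobi, an alpha-glucosidase known as a target of insulin and adipokinetic hormone signalling, had 115 and 118 CPM in mutant libraries and 115 and 116 CPM in control libraries. With total-count scaling 2 members were called higher and the median was 0.16. None was called without mutant replicate 1 or without mutant replicate 2, against 6 without control replicate 1 and 9 without control replicate 2.

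Proteases and detoxifying enzymes split in both directions. Among 30 serine proteases of digestion, Jon25Biii rose, with 254 and 282 CPM in mutant libraries and 192 and 191 CPM in control libraries (log2 0.48, edgeR adjusted p 0.00462), and thetaTry and Jon66Ci fell by 0.41 and 0.51. The list's median was -0.01. The list of 69 cytochrome P450 genes, taken by symbol, had 2 called higher, 4 called lower and a median of -0.02; 1 of the falls, Cyp1 (-0.65), is a cyclophilin that shares the letters and is no P450. Cyp4p1 had 33.1 and 27.7 CPM in mutant libraries and 10.7 and 11.1 CPM in control libraries, a log2 change of 1.49 (SE 0.14, edgeR adjusted p 3.93e-05). The groups were far apart, while its genomic neighbours moved the other way: Cyp4p2 fell by 0.76 (edgeR adjusted p 0.0145) and Cyp4p3 by 1.39 (edgeR adjusted p 0.0242). Cyp4g1, the P450 that makes cuticular hydrocarbons in oenocytes, had 5.92 and 7.79 CPM in mutant libraries and 1.76 and 0.954 CPM in control libraries (log2 2.30, edgeR adjusted p 0.00294). Cyp6a14 fell by 0.89 on the log2 scale. No glutathione S-transferase of 26 (median 0.07) and no UDP-glycosyltransferase of 26 (median -0.01) was called.

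Vacuolar ATPase subunits, which acidify lysosomes and the copper cell region of the midgut, were lower. Of 22 tested, 21 were below 0 (median log2 fold change -0.32). Of the 22, 3 were called lower and none higher, against 0.827% of all genes called lower. Vha16-1, a subunit of the proton-carrying ring, had 1414 and 1412 CPM in mutant libraries and 1877 and 1867 CPM in control libraries, a log2 change of -0.41 (SE 0.07, edgeR adjusted p 0.0054). Replicates differed little and the groups lay apart. Vha26 and the accessory subunit VhaAC45 fell by 0.33 and 0.35 (edgeR adjusted p 0.0341 each). The count became 0 with total-count scaling, with the legacy quasi-likelihood method of edgeR and without either mutant library, and 8 without control replicate 1 and 8 without control replicate 2; the median kept its sign under every alternative run and was -0.21 without control replicate 2. Of 6 markers of copper and iron cells, of which copper cells are rich in this pump, none was called. Log2 values of the 6 markers were all below 0 (median -0.16), and the CPM of 2 of the 6 did not overlap between groups, beside 42% of all genes tested. The summed level of these markers was 551 and 550 CPM in mutant libraries and 633 and 627 CPM in control libraries. The list includes markers of iron cells and a subunit of the pump itself, so the sum is no separate measure of copper cells. The part of these markers in the result was not tested. In bulk RNA, fewer cells of a type and less RNA per cell cannot be told apart.

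Immune recognition changed in a pair of genes. Of 10 peptidoglycan recognition proteins tested, PGRP-SC1a and PGRP-SC2 were called higher and none lower, against 0.615% of all genes called higher. Both belong to the amidases that cut peptidoglycan and so damp the Imd response to gut bacteria. PGRP-SC1a had 14.4 and 15.7 CPM in mutant libraries and 3.93 and 5.81 CPM in control libraries, a log2 change of 1.63 (SE 0.21, edgeR adjusted p 0.000452). PGRP-SC2 had 52.8 and 54.7 CPM in mutant libraries and 26.5 and 35.2 CPM in control libraries (0.80, SE 0.13, edgeR adjusted p 0.00278). Neither gene's groups overlapped, as in every called gene. PGRP-SC1a has a near-identical copy, PGRP-SC1b, so how its reads were split is uncertain. Antimicrobial peptides were hardly detected: 1 of 20 passed the filter on low counts (median -0.26, not called), and their summed level was 1.39 and 1.90 CPM in mutant libraries and 1.31 and 1.91 CPM in control libraries. None of 5 lysozymes was called (median -0.14).

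Several genes outside these lists had large changes. CG11893 had 0.195 and 0.435 CPM in mutant libraries and 14.7 and 9.80 CPM in control libraries, a log2 change of -5.36 (SE 0.41, edgeR adjusted p 5.03e-06), on 7 and 11 counts in mutant libraries and 360 and 226 counts in control libraries. The gene was near the limit of detection in 1 group and plainly present in the other. The stoned genes stnA and stnB, which act in synaptic vesicle recycling and share 1 transcript, had the same counts; each had 15.9 and 17.8 CPM in mutant libraries and 1.88 and 2.82 CPM in control libraries (2.84, SE 0.23, edgeR adjusted p 5.03e-06). They are 1 measurement counted for both symbols. CG15083 had 12.2 and 13.9 CPM in mutant libraries and 2.94 and 2.12 CPM in control libraries (2.35, SE 0.24, edgeR adjusted p 6.02e-05). CG17571 had 35.0 and 36.3 CPM in mutant libraries and 78.1 and 79.8 CPM in control libraries (-1.15, SE 0.10, edgeR adjusted p 7.76e-06). In none of these did the groups overlap, which the rule for naming them required. The same held for every called gene, beside 42% of all genes tested.

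Further large changes involved alkaline phosphatases, a ceramidase and genes at low level. Alp4 had 29.2 and 26.9 CPM in mutant libraries and 51.6 and 49.4 CPM in control libraries (log2 -0.85, edgeR adjusted p 0.000452), and Alp2, a second alkaline phosphatase, fell by 1.02. bwa, an alkaline ceramidase, fell by 1.19 on the log2 scale (edgeR adjusted p 0.0172). CG15695 had 10.2 and 12.3 CPM in mutant libraries and 1.35 and 3.60 CPM in control libraries (2.19, edgeR adjusted p 0.00119). CG5731 had 57 and 30 counts in mutant libraries and 0 counts in both control libraries. With a floor of 3 counts in each control library, the ratio of the mean CPM of the groups was 10.96. CG15097, with 2.84 and 2.92 CPM in mutant libraries and 0 and 0.434 CPM in control libraries, was the other of the 2 largest rises at any level; both it and CG5731 had 0 counts in control replicate 1, the library that stands apart at low counts. After 28SrRNA-Psi:CR40741 and CG11893, the largest falls were in CR43494 and CG31683, which the naming rule did not select. CR43494 had 8 and 0 counts in mutant libraries and 57 and 48 counts in control libraries, and CG31683 had 10 and 7 counts in mutant libraries and 95 and 41 counts in control libraries.

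Non-coding RNA genes were called in both directions. Of 114 small nucleolar RNA genes tested, which guide the modification of rRNA, 86 were above 0 (median log2 fold change 0.44). Of the 114, 3 were called higher and none lower, against 0.615% of all genes called higher. Their level was low, where control replicate 1 stands apart: the median of their average log2 CPM was -0.0077, and 1 averaged 16 CPM or more. snoRNA:185 had 14.9 and 16.8 CPM in mutant libraries and 5.19 and 8.58 CPM in control libraries (1.20, edgeR adjusted p 0.00568), and snoRNA:Psi28S-1060 and snoRNA:Psi28S-1180 rose by 1.84 and 1.61. snRNA:7SK, which holds back the elongation factor P-TEFb, fell by 0.82, and Uhg7, which overlaps RpL23A, fell by 0.91. CR40190 and CR44847 rose by 1.29 and 1.33. Small nucleolar RNAs and snRNA:7SK lack or mostly lack poly(A) tails or lie within other transcripts. Exons of CR44847 overlap those of CG31731 on the other strand, and whether counting used strand is not given in the sources used here. The rRNA repeats 28SrRNA-Psi:CR40741 (103 and 78.0 CPM in mutant libraries, 593 and 2837 CPM in control libraries) and 28SrRNA-Psi:CR40596 (21103 and 17886 CPM in mutant libraries, 9154 and 3656 CPM in control libraries) were called lower and higher; reads of such repeats cannot be placed with certainty. In all, exons of 44 of the 143 called genes overlap those of another gene.

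Stress, signalling and cell cycle lists held few calls. Hsp83, the fly Hsp90 chaperone, had 212 and 214 CPM in mutant libraries and 290 and 265 CPM in control libraries (log2 -0.38, edgeR adjusted p 0.0206); it was the one call among 14 heat shock genes, whose median was -0.24. rl, the fly ERK kinase, rose by 0.53 (edgeR adjusted p 0.0175) and was the one call among 16 genes of JAK-STAT and EGFR signalling (median 0.07). No gene was called among 34 proteasome subunits (median 0.0012), 31 genes of DNA replication and mitosis (0.07) and 13 of the Notch pathway (-0.02). The same held for 13 genes of JNK signalling (0.09) and 14 of fat storage and lipid breakdown (0.19). Of the 34 proteasome genes 7 averaged 16 CPM or more, and of the 31 replication and mitosis genes 1. The lack of calls there does not show a lack of change.

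Markers were looked at beside the label of the cells. The progenitor markers esg and Dl were present: esg, a transcription factor that keeps stem cells undifferentiated, had 17.4 and 19.8 CPM in mutant libraries and 17.0 and 17.0 CPM in control libraries (log2 0.13, edgeR adjusted p 0.785), groups that were close together. Dl, the Notch ligand of stem cells, had 5.78 and 6.44 CPM in mutant libraries and 9.90 and 9.84 CPM in control libraries. The groups of Dl did not overlap, but its log2 difference of -0.70 (SE 0.20) was not past the threshold (edgeR adjusted p 0.117). None of 13 progenitor markers was called (median -0.24), and their summed level was 275 and 284 CPM in mutant libraries and 328 and 294 CPM in control libraries. Markers of other gut cells were present in every library as well. Enterocyte markers, all 15 tested, summed to 4615 and 4700 CPM in mutant libraries and 4754 and 4953 CPM in control libraries, and Mal-A1 was the only called member. This sum was above the progenitor sum in every library. The lists hold different genes, so the sums do not measure shares of cells, and the markers do not establish that the RNA came from stem cells.

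Of 16 enteroendocrine markers tested, nrv3, a subunit of the sodium pump that is also on the neuron list, rose by 1.18 (edgeR adjusted p 0.0458), and the peptide hormone gene AstA fell by 0.63 (edgeR adjusted p 0.0479). Their sums were 146 and 141 CPM in mutant libraries and 146 and 151 CPM in control libraries, and those of the 15 neuron markers, of which only nrv3 was called, were 119 and 127 CPM in mutant libraries and 106 and 105 CPM in control libraries. Visceral muscle markers summed to 1548 and 1437 CPM in mutant libraries and 1270 and 1242 CPM in control libraries. Among 17 tested, 1 was called, sls, the fly titin, with 500 and 450 CPM in mutant libraries and 345 and 329 CPM in control libraries (log2 0.50, edgeR adjusted p 0.00313); the list's median was 0.02. No marker was called for trachea (5 tested, median 0.08), haemocytes (7, 0.03, with He at 0 counts in all 4 libraries), fat body (9, -0.14), Malpighian tubules (9, 0.04) or germ line (10, 0.43).

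The direction of change varied with exon length. Among 2107 protein-coding genes whose average log2 CPM was 4 or more, 69.7% of the 284 genes with over 8000 exonic bases were above 0, of which 11 were called higher and none lower. Of the 167 genes with up to 1000 bases, 37.7% were above 0, with 8 called higher and 19 lower. Spearman's rho of log2 fold change with length was 0.24 across these genes, which are not independent replicates and share the same 4 libraries. Without the ribosomal protein genes, which are short, rho was 0.18, and 49.6% of the 127 remaining genes of up to 1000 bases were above 0. Long genes called higher, chosen after their values were seen, included Msp300, a nesprin that anchors nuclei, with 2534 and 2384 CPM in mutant libraries and 1915 and 1835 CPM in control libraries (log2 0.39, edgeR adjusted p 0.0101). Dys, the fly dystrophin, rose by 0.55 (edgeR adjusted p 0.00246). The part of transcript length in the gene group results was not tested.

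**Figure D4:**
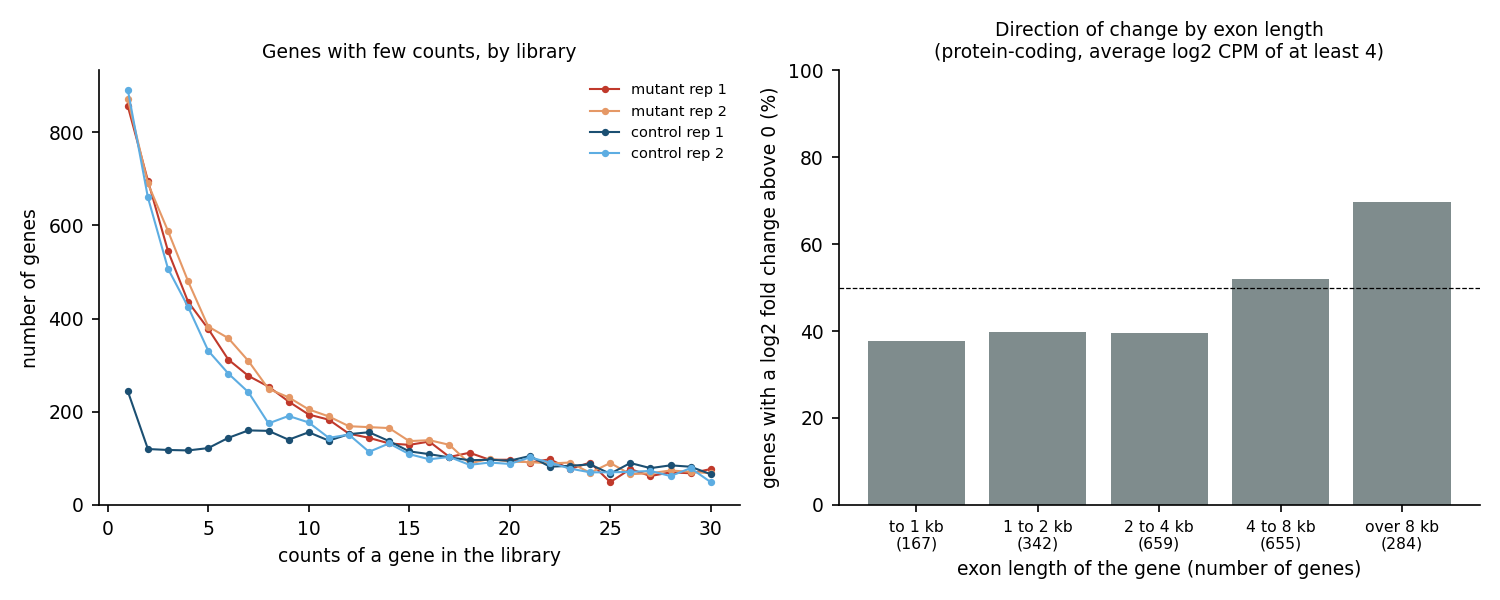
Left, the number of genes with each count from 1 to 30 in each library with FOXO knockdown; control replicate 1 has 721 genes with 1 to 5 counts, against 2814 to 3012 in the other 3. Right, the percentage of genes above 0 (log2 fold change of mutant over control) by exon length, which is 37.7% up to 1 kb and 69.7% over 8 kb; the dashed line marks equal numbers.

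The same change without knockdown was set beside that with knockdown. The libraries without knockdown fall into a pair with a low rRNA share (mutant replicate 1 at 30.8% and control replicate 1 at 18.2%) and a pair with a high one (mutant replicate 2 at 79.6% and control replicate 2 at 79.4%), so the mutant over control ratio was taken within each pair, with no test. None of these libraries enters the knockdown comparison. Mitochondrial mRNAs were lower in mutant libraries either way: 12 of 13 were below 0 in both pairs. The medians were -0.70 and -0.91, beside -0.56 with knockdown. In the low-rRNA pair the mitochondrial genome took 0.40% (mutant) and 0.69% (control) of counts outside rRNA genes. In the high-rRNA pair it took 2.42% and 5.02%, so the pairs are not alike in mitochondrial RNA. Carbohydrases had medians of 0.74 and 0.50 without knockdown and 0.28 with it, and 13 of 18 had the same sign in all. Ribosomal protein genes had the opposite sign: medians were 0.21 and 0.27 without knockdown and -0.39 with it, and 63 of 82 were above 0 in both pairs. Over all genes tested, 31.3% had the sign of the knockdown comparison in both pairs; of the genes called higher with knockdown it was 59.0% (36 of 61) and of those called lower 23.2% (19 of 82).

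**Figure D5:**
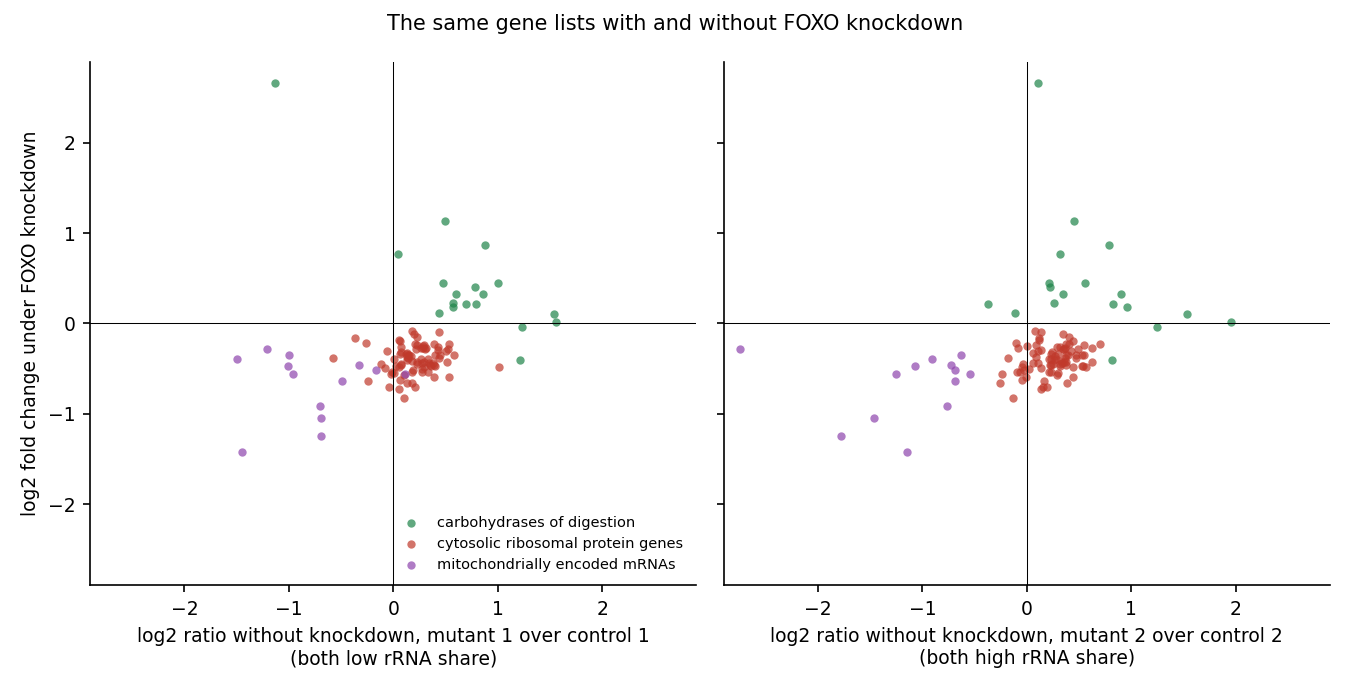
Each point is 1 gene, with the log2 fold change of mutant over control mtDNA with FOXO knockdown on the vertical axis and the log2 ratio of mutant over control without knockdown on the horizontal axis, for the pair with a low rRNA share (left) and the pair with a high one (right). Mitochondrial mRNAs lie mostly at lower left and carbohydrases mostly at upper right, while ribosomal protein genes lie mostly at lower right, with medians of 0.21 and 0.27 without knockdown and -0.39 with it.

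The difference between the mtDNA change with knockdown and that without was tested in a fit of all 8 libraries with a term for the rRNA class. At an edgeR adjusted p under 0.05, 103 of 11561 genes (0.891%) were called, 30 (0.259%) with a higher and 73 (0.631%) with a lower log2 change with knockdown than without. Of 83 ribosomal protein genes in this fit, 82 had a lower change with knockdown, with a median difference of -0.62, and 18 were called lower and none higher. No mitochondrial mRNA was called, and their median difference was 0.09. Of 18 carbohydrases, 4 were called lower (Gal, Mal-A3, Mal-A4 and tobi) and none higher, with a median difference of -0.16. Of the 143 genes called with knockdown, 28 were past the threshold for this difference. The count of 103 was 12 without mutant replicate 1, 14 without mutant replicate 2 and 13 without control replicate 1 of the knockdown groups, and the lean towards lower changes depended on the processing. With total counts 18 genes were called higher and 10 lower (64.3% higher, against 29.1% with TMM), and without control replicate 2 it was 35 and 35. Without the class term no gene was called (282 at an unadjusted p under 0.05).

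The differences with the smallest adjusted p were in tobi, Fst, CG4835, Mal-A3 and CG33109. tobi had a log2 difference of -1.72 (SE 0.17, edgeR adjusted p 0.00136), and Fst, a gene known for its induction by cold, one of -1.53 (edgeR adjusted p 0.00189). On the scale of all 8 libraries the maltase Mal-A3 had 54.3 and 59.9 CPM in mutant and 56.0 and 49.5 CPM in control libraries with knockdown, and 230 and 76.7 CPM in mutant and 79.4 and 26.5 CPM in control libraries without knockdown. Its groups overlap with knockdown, and without it the mutant library was the higher of each pair (difference -1.42, edgeR adjusted p 0.00325). CG33109 had 9.54 and 9.03 CPM in mutant and 5.27 and 5.04 CPM in control libraries with knockdown, but 17.3 and 9.36 CPM in mutant and 42.5 and 21.4 CPM in control libraries without it, so that its direction was opposite (difference 2.10, edgeR adjusted p 0.00325). CG4835 had a difference of -2.32 (edgeR adjusted p 0.00325).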

How the data were processed

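Per the labels' protocols, RNA bound to FLAG-tagged pAbp was eluted and sequenced as total mRNA on an Illumina instrument. The authors deposited whole-number counts per gene, not normalized, and the submitters' processing notes name FastQC, cutadapt, HISAT2, featureCounts and limma without version, role or order. The genome build and strand setting are not given in the sources used here, so no coordinates or sequences are printed. Table columns were assigned by the abbreviated titles of the samples. Of 17473 identifiers, 17331 matched Ensembl release 115, which served for names, biotypes, exon lengths, overlaps and neighbours only; 196 of 10552 genes with over 100 counts had the same counts as another gene.

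Counts were tested in edgeR 4.0.16 (R 4.3.3) by the quasi-likelihood F-test, two-sided, on the 4 libraries with FOXO knockdown, with TMM scaling (factors 0.922 to 1.09), filterByExpr and Benjamini-Hochberg adjustment over all genes tested, at a threshold of 0.05. The difference from the comparison without knockdown used all 8 libraries and a term for an rRNA share under 50%. Ratios without knockdown used a prior count of 2. The floor of 3 counts for a gene at 0 equals 0.0831 to 0.142 CPM of total counts. Floors and intervals cover counting error alone, as PCR copies are not separate molecules. Group members and the 39 gene lists were chosen with earlier results of these data known. Named genes were, among called genes averaging 2 log2 CPM or more and without overlap, the 12 largest rises and falls; up to 4 called members a list; all members of lists of up to 3; foxo, Thor, InR, esg and Dl; the 2 largest changes each way at any level; and the 5 smallest p for the difference. Alternatives were other scalings and filters, DESeq2 1.42.0, the legacy quasi-likelihood method and a replicate block. Other sets of libraries, stricter thresholds and leaving out each library with knockdown were also run. The fits were tested on simulated counts with known changes.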

Additional observations from a re-analysis of the deposited data

Results flagged for a closer look

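For 18 of the genes named, the log2 change of mutant over control mtDNA with FOXO knockdown differed from that without knockdown at an edgeR adjusted p under 0.05, in the fit of all 8 libraries with a term for the rRNA class. Values are the log2 change with knockdown minus that without. The difference was -1.72 for tobi, -1.53 for Fst, -2.32 for CG4835, -1.42 for Mal-A3 and 2.10 for CG33109. Among genes called with knockdown it was negative for CG17571 (-1.38), CG11893 (-3.54), Cyp6a14 (-1.115), Jon66Ci (-1.23) and snRNA:7SK (-1.03). It was positive for stnA and stnB (2.74 each, from the same counts), CG15083 (3.11) and CG15695 (3.25). The ribosomal protein genes RpLP2, RpS26, RpS28b and RpL11 had differences of -1.08, -0.90, -0.81 and -0.81.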

How the results depend on the processing

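With FOXO knockdown, 143 genes were called for mutant against control mtDNA. The count was 57 at an adjusted p under 0.01, 29 with a log2 change of at least 1, 241 without rRNA genes, 61 with no filter, 396 with DESeq2, 75 with the legacy quasi-likelihood method, 35 with all 8 libraries and the class term, and 0 with all 8 libraries without it (334 at an unadjusted p under 0.05). It was 155 with DESeq2 size factors, 116 with total counts, 205 with the 5 CPM filter and 143 with the 6 high-rRNA libraries, and 6 to 1891 with 1 library left out. For the difference from the change without knockdown, the count of 103 became 28 with total counts, 157 without rRNA genes, 270 with DESeq2, 68 with no filter and 0 without the class term, and 12 to 70 with 1 library left out. The cause was not tested.

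Replicate numbers share no stated batch, and deviations of same-numbered replicates had a correlation of -0.07 over 2192 genes. With a replicate block, 218 genes were called, all 143 among them, and 34 for the difference.

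Of 53 called genes named, none changed sign under any alternative run; 43 stayed called with total counts, 32 with no filter, 31 with the legacy method, 22 with 8 libraries and the class term, 6 without mutant replicate 1 and 5 without mutant replicate 2. Signs turned for foxo (-0.057 with total counts), InR (-0.064 with total counts; -0.0035 without mutant replicate 1, up to 0.14 without mutant replicate 2) and mt:srRNA (0.33 without control replicate 1, -1.05 without control replicate 2). The median of all genes moved to -0.11 with total counts and 0.12 with no filter. With 1 library left out, the lone one is assumed to vary like the other group, and 2 libraries a group limit every call.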
